A study of Mus musculus with 22 samples.

Results

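The collecting duct, the last segment of the nephron, was described through 10 marker transcripts of its principal and intercalated cells in mouse kidney cortex. They were found by their symbols in the deposited table, and all 10 of the 10 listed genes were there, among 16556 genes in all. The principal cell genes were Aqp2, Aqp3, Scnn1b, Scnn1g and Avpr2, and the intercalated cell genes were Slc26a4, Slc4a1, Atp6v1b1, Atp6v1g3 and Foxi1. All 10 passed the filter on low counts, as did 15064 of the 16556 genes.

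The study removed carnitine acetyltransferase, a mitochondrial enzyme encoded by Crat, from proximal tubule cells, with Cre driven by the Ggt promoter. The collecting duct is therefore not the segment in which Cre was directed to act. RNA from cortex, a mixture of cell types, was read near the 3' end of each transcript in 22 libraries, 1 per animal title. All animals were labelled as male C57BL/6J mice and as either Pt-CrAT, with Ggt-Cre, or fl/fl, with no Cre promoter given. At 12 months there were 3 Pt-CrAT and 3 fl/fl libraries, whose titles carry the letters LFD, not spelled out in the labels. At 15 months there were 3 and 3, and at 24 months 5 and 5, all with chow in the title. Levels in the 12-month libraries were not tested against those in the older ones, because the diet word differs along with the age. The genotype difference at 12 months was set against the later ones only as variation among the 3 settings. There, diet word and age cannot be told apart.

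Principal cells take up sodium from the urine through the epithelial sodium channel and water through aquaporins under the control of vasopressin. Intercalated cells set the acidity of the urine with a proton-pumping V-ATPase and chloride-bicarbonate exchangers: type A cells secrete acid and type B cells secrete bicarbonate. The make-up of the duct is known to shift when the kidney adapts to acid, salt or water loads.

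Library totals were 12175804 to 17447367 counts, with 53157575 in Pt-CrAT library CrAT12MLFD345 at 12 months. Crat, the targeted gene, had a level of 36.2 ± 4.41 CPM (read counts relative to the library total, scaled by TMM) in Pt-CrAT cortex and 74.7 ± 24.4 in fl/fl cortex at 24 months (SD, n = 5 each). These groups did not overlap, but the log2 fold change of -1.04 did not pass (SE 0.21, adjusted p = 0.177, edgeR's quasi-likelihood test). At 12 months Crat had 62.5 ± 19.4 CPM in Pt-CrAT and 78.9 ± 22.5 in fl/fl (SD, n = 3 each). Here the genotypes overlapped, and the difference did not pass (-0.33, SE 0.27, adjusted p = 0.410, edgeR). At 15 months the order went against the labels, with 69.1 ± 5.27 CPM in libraries labelled Pt-CrAT and 45.3 ± 13.3 in libraries labelled fl/fl (SD, n = 3 each). That difference did not pass either (0.61, SE 0.27, adjusted p = 0.581, edgeR). Every direction that uses a 15-month library rests on the labels of that age. Kap, an androgen-regulated transcript of the proximal tubule, had 4565 and 2853 CPM in Pt-CrAT libraries CrAT24Mchow123 and CrAT24Mchow136 at 24 months, against 18928 to 28807 CPM in the other Pt-CrAT libraries and 24284 to 32398 CPM in fl/fl libraries of that age. Called results that rest on libraries CrAT24Mchow123 and CrAT24Mchow136 are given with and without them.

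The promoters of the genes that passed a test in a chow comparison are shown, with the matches they hold to 3 short motifs. Each runs from 250 bases before to 50 bases after the annotated start, 5′ to 3′ on the gene's strand, from RefSeq (GRCm38.p6), which had an entry for 9 of the 10 genes. Capitals mark matches, on either strand, to the forkhead core TGTTTAC, the cyclic AMP response half-site TGACG and the TATA box TATAAA. The Aqp2 window lies at chr15:99578806-99579105 (plus strand), that of Avpr2 at chrX:73891852-73892151 (plus strand), that of Slc26a4 at chr12:31559935-31560234 (minus strand) and that of Atp6v1b1 at chr6:83742767-83743066 (plus strand).
Aqp2: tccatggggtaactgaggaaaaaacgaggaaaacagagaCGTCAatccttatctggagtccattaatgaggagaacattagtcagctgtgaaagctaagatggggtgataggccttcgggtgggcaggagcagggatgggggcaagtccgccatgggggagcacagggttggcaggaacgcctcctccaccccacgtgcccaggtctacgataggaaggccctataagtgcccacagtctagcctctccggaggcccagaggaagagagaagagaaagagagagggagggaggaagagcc
Avpr2: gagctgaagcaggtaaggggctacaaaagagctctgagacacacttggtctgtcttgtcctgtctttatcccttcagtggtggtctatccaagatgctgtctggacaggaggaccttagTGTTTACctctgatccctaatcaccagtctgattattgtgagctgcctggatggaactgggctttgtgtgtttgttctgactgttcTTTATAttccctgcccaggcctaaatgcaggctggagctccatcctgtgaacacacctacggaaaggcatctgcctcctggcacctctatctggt
Slc26a4: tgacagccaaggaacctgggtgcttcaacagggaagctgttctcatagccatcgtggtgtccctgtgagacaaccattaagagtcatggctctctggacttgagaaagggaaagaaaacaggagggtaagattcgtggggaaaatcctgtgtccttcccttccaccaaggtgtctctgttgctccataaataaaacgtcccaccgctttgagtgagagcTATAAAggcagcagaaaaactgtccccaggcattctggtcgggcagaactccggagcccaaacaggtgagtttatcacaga
Atp6v1b1: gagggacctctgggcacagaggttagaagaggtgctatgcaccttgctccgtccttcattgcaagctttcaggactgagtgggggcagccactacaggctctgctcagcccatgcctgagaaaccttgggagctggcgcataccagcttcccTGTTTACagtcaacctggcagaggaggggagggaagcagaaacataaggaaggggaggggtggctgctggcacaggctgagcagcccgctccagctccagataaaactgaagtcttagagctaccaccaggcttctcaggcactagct
In the Aqp2 window the half-site, whose letters bind factors activated by cyclic AMP, the second messenger of vasopressin, began 211 bases before the start on the reverse strand. Of 32851 promoters of the same length, 20.8% held this half-site. The forkhead core, the kind of sequence that Foxi1 proteins bind, began 98 bases before the start of Atp6v1b1 and 131 bases before that of Avpr2, and 3.65% of promoters held it. The variant core TGTTTGC was in none of the 9 windows and in 5.07% of all promoters. A TATA box began 31 bases before the start of Slc26a4, 29 before that of Aqp3 and, on the reverse strand, 45 before that of Avpr2, against 13.6% of all promoters. No 2 matches overlapped. A match is a likeness of letters and says nothing of binding.

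Aqp2, the vasopressin-regulated water channel of the principal cell's urinary face, was the member with the largest rise between 15 and 24 months in Pt-CrAT cortex. Its levels were 991, 623, 479, 1010 and 745 CPM in Pt-CrAT libraries at 24 months, against 421, 185.2 and 255 CPM in libraries labelled Pt-CrAT at 15 months. Every 24-month value lay above every 15-month value. The log2 fold change was 1.42 (SE 0.30, adjusted p = 0.00555, edgeR's quasi-likelihood test with Benjamini-Hochberg adjustment over all genes tested). Aqp2 in fl/fl cortex had 478, 547, 336, 731 and 465 CPM at 24 months and 390, 383 and 775 CPM at 15 months. These groups overlapped, and the log2 fold change was -0.01 (SE 0.28, adjusted p = 0.984). The difference between the age effects in the 2 genotypes did not pass (1.44, SE 0.40, adjusted p = 0.290).

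The highest Aqp2 levels were in Pt-CrAT libraries CrAT24Mchow136 and CrAT24Mchow123 at 24 months, the libraries with low Kap. Without this pair the log2 fold change of Aqp2 was 1.10 and its adjusted p was 0.0560, and without library CrAT15Mchow185 at 15 months, the lowest library, the values were 1.19 and 0.0515 (both edgeR). Over all alternatives run, the adjusted p of Aqp2 ranged from 5.9e-05 to 0.0560.

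Avpr2, the vasopressin receptor whose cyclic AMP signal sends Aqp2 to the membrane, rose alongside it. Avpr2 had 14.2, 10.3, 10.5, 13.5 and 10.2 CPM in Pt-CrAT libraries at 24 months, against 9.18, 5.87 and 5.87 CPM in those labelled Pt-CrAT at 15 months. The ages did not overlap, and the log2 fold change was 0.75 (SE 0.21, adjusted p = 0.0217, edgeR). Without libraries CrAT24Mchow123 and CrAT24Mchow136 it was 0.56 with an adjusted p of 0.161. The call was also lost without library CrAT24Mchow123 alone (adjusted p = 0.0523), without library CrAT15Mchow185 (0.139) and without library CrAT15Mchow204 (0.132), with a range of 0.00712 to 0.161 over all alternatives run. The levels of Avpr2 in fl/fl cortex were 14.3, 10.1, 8.37, 12.8 and 11.3 CPM at 24 months and 6.58, 8.59 and 11.5 CPM at 15 months, and the groups overlapped (log2 fold change 0.35, SE 0.20, adjusted p = 0.303). Avpr2 lies wholly within the spans of Arhgap4 and L1cam, both on the opposite strand. It shares 2347 exonic bases with Arhgap4, of which 0 are in its last 500 bases, where 3' reads fall. Arhgap4 did not pass (0.23, adjusted p = 0.560), whereas L1cam rose in the same comparison (0.99, SE 0.17, adjusted p = 0.00173, edgeR) and shares no exonic base with Avpr2. No source used here says whether the counting used strand.

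Aqp3, the water channel of the opposite, blood-facing membrane, had no call with age. It had 22.9, 29.1, 27.4, 47.7 and 24.5 CPM in Pt-CrAT libraries at 24 months, against 27.6, 21.2 and 21.8 CPM in those labelled Pt-CrAT at 15 months (log2 fold change 0.37, SE 0.23, adjusted p = 0.320). The value of 47.7 CPM was again library CrAT24Mchow136, without which the log2 fold change was 0.14 (0.19 without it and CrAT24Mchow123).

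Of the 3 subunits of the sodium channel, none passed with age in Pt-CrAT cortex. Scnn1b, the beta subunit, had 64.5, 46.3, 57.0, 54.0 and 59.6 CPM in Pt-CrAT libraries at 24 months and 69.9, 77.0 and 76.2 CPM in those labelled Pt-CrAT at 15 months. All 24-month values were below, but the log2 fold change of -0.40 did not pass (SE 0.16, adjusted p = 0.107). Scnn1g, the gamma subunit, had 2.23, 2.18, 3.61, 3.77 and 2.79 CPM at 24 months and 3.99, 5.31 and 4.10 CPM at 15 months. Its groups also did not overlap, with a log2 fold change of -0.61 (SE 0.24, adjusted p = 0.107). Scnn1a, the alpha subunit, had 18.4 ± 4.13 CPM in Pt-CrAT at 24 months and 17.7 ± 0.34 CPM in libraries labelled Pt-CrAT at 15 months (SD, n = 5 and 3; 0.06, SE 0.22, adjusted p = 0.889). The log2 ratio of Aqp2 to Scnn1b within a library averaged 3.72 ± 0.43 in Pt-CrAT at 24 months and 1.86 ± 0.67 in libraries labelled Pt-CrAT at 15 months (SD, n = 5 and 3). The ranges were 3.07 to 4.22 and 1.26 to 2.59, with no overlap, and the 24-month range was 3.07 to 3.75 without CrAT24Mchow123 and CrAT24Mchow136. Every Aqp2 value at 24 months lay above and every Scnn1b value below those at 15 months, so this ratio could not overlap. This ratio in fl/fl cortex averaged 3.07 ± 0.22 at 24 months and 2.91 ± 0.55 at 15 months and overlapped. Scnn1b lies over Cog7 on the opposite strand without sharing exonic bases.

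**Figure D1:**
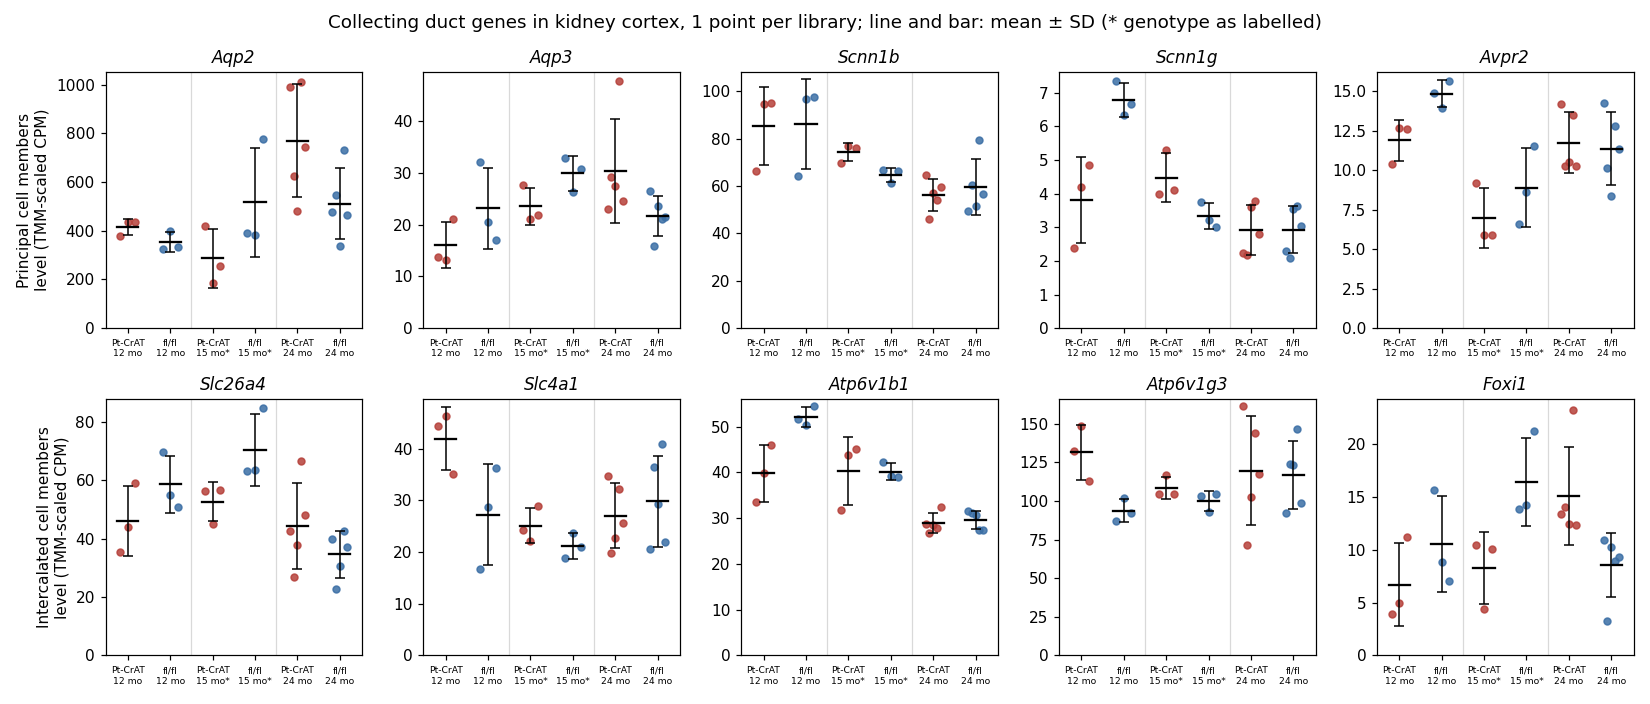
TMM-scaled CPM of the 10 collecting duct genes (vertical axis, linear from 0) in the 6 groups, 1 point per library, with mean and SD. Aqp2 in Pt-CrAT libraries at 24 months spans 479 to 1010 CPM, above the 185.2 to 421 CPM of the libraries labelled Pt-CrAT at 15 months, and Slc26a4 in fl/fl libraries at 24 months lies below those labelled fl/fl at 15 months.

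Among the intercalated cell genes, Atp6v1b1, which encodes the B1 subunit of the V-ATPase that intercalated cells use, fell with age in Pt-CrAT cortex. It had 28.6, 26.7, 28.5, 27.8 and 32.5 CPM in Pt-CrAT libraries at 24 months, against 31.8, 43.8 and 45.2 CPM in those labelled Pt-CrAT at 15 months. The groups overlapped through 1 library of each age. The log2 fold change was -0.48 (SE 0.12, adjusted p = 0.0159, edgeR), and the call was lost without library CrAT15Mchow185 (-0.41, 0.117), without library CrAT15Mchow204 (-0.38, 0.140), without libraries CrAT24Mchow123 and CrAT24Mchow136 (-0.47, 0.0779) and when only the groups compared entered the fit (-0.47, 0.0512). The adjusted p ranged from 0.00354 to 0.140 over all alternatives run. Atp6v1b1 in fl/fl cortex had 31.5, 31.2, 30.6, 27.4 and 27.4 CPM at 24 months and 42.3, 39.2 and 39.0 CPM at 15 months. Here all 24-month values were below, with a log2 fold change of -0.44 (SE 0.13, adjusted p = 0.0703), which passed with DESeq2 (-0.44, 0.0255) and, in edgeR, without library Wt24Mchow145 (-0.47, 0.0445).

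Slc26a4, which encodes pendrin, the chloride-bicarbonate exchanger on the urinary face of type B cells, fell with age in fl/fl cortex. It had 39.8, 22.7, 30.6, 42.8 and 37.3 CPM in fl/fl libraries at 24 months, against 63.3, 63.5 and 84.8 CPM in those labelled fl/fl at 15 months. The groups did not overlap, and the log2 fold change was -1.03 (SE 0.23, adjusted p = 0.0274, edgeR). Leaving out fl/fl library Wt15Mchow205, Wt15Mchow225, Wt15Mchow227, Wt24Mchow154 or Wt24Mchow164 in turn lost the call, with log2 fold changes of -0.87 to -1.11 and adjusted p-values from 0.0624 to 0.189. The lowest adjusted p of any alternative was 0.00269, with DESeq2. In Pt-CrAT cortex Slc26a4 had 42.7, 26.9, 37.9, 66.5 and 48.0 CPM at 24 months and 56.5, 45.1 and 56.6 CPM at 15 months, overlapping (-0.25, SE 0.23, adjusted p = 0.514; -0.49, adjusted p = 0.255 without CrAT24Mchow123 and CrAT24Mchow136). The difference between the 2 age effects was 0.78 (SE 0.33, adjusted p = 0.300). Markers of other segments moved with age in fl/fl cortex too. The summed distal convoluted and connecting tubule markers were 1004 to 1452 CPM at 24 months and 1820 to 2547 CPM at 15 months, and 2 of 8 fell. The summed proximal tubule markers were 7481 to 8672 CPM at 24 months and 9276 to 10591 CPM at 15 months, and 1 of 8 fell. Neither sum overlapped between the ages, and their part in the fall of Slc26a4 was not tested.

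Slc4a1, which encodes the exchanger AE1 on the blood-facing membrane of type A cells and also band 3 of red cells, had no call in any comparison with all libraries. It had 20.6, 36.4, 29.3, 41.0 and 21.9 CPM in fl/fl libraries at 24 months and 18.8, 23.8 and 21.1 CPM in those labelled fl/fl at 15 months (0.49, SE 0.24, adjusted p = 0.237). Within libraries the log2 ratio of Slc4a1 to Slc26a4 averaged -0.23 ± 0.65 at 24 months and -1.72 ± 0.30 at 15 months in fl/fl cortex (SD, n = 5 and 3), and the ages did not overlap. Slc26a4 alone already separated these ages, whereas Slc4a1 overlapped, so this ratio is not separate evidence. In Pt-CrAT cortex it averaged -0.68 ± 0.31 at 24 months and -1.07 ± 0.13 at 15 months, and the ages overlapped. Reads near the 3' end do not separate the renal from the red cell form of Slc4a1. Over the 22 libraries, with group means removed, Slc4a1 correlated with the mean of 7 red cell markers at r = 0.29 (rho 0.37) and with the haemoglobin transcript Hbb-bs at r = 0.05 (rho 0.11). With the mean of 8 proximal tubule markers it correlated at r = -0.80 (rho -0.84). Of 9334 genes with at least 5 CPM, 6.02% had a negative r with Slc4a1 of at least 0.7 in size. These libraries share tissue, scaling and preparation, so the values are descriptions.

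Atp6v1g3, the V-ATPase G3 subunit of intercalated cells, had no call with age. In Pt-CrAT libraries it had 161, 71.4, 102, 144 and 118 CPM at 24 months and 104, 117 and 105 CPM at 15 months (0.14, SE 0.19, adjusted p = 0.679). The log2 ratio of Atp6v1g3 to Atp6v1b1 averaged 1.96 ± 0.31 at 24 months and 1.31 ± 0.09 at 15 months in fl/fl cortex, without overlap. There Atp6v1b1 alone already separated the ages, whereas Atp6v1g3 overlapped, so this ratio is not separate evidence. It averaged 1.99 ± 0.44 and 1.44 ± 0.25 at these ages in Pt-CrAT cortex, with overlap (SD, n = 5 and 3 in each genotype).

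Foxi1, the forkhead factor that intercalated cells need to form, had age differences of opposite sign in the 2 genotypes, neither of which passed. It had 13.4, 14.0, 12.4, 23.2 and 12.4 CPM in Pt-CrAT libraries at 24 months, above the 10.5, 4.39 and 10.1 CPM of those labelled Pt-CrAT at 15 months (0.86, SE 0.39, adjusted p = 0.153). Levels in fl/fl cortex were 10.9, 3.27, 10.2, 8.94 and 9.28 CPM at 24 months, below the 13.8, 14.2 and 21.2 CPM of those labelled fl/fl at 15 months (-0.94, SE 0.37, adjusted p = 0.155). The difference of these age effects was 1.81 (SE 0.54, adjusted p = 0.290).

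Between 24 and 15 months, then, 3 of the 10 members passed in Pt-CrAT cortex, where 11.3% of all genes tested passed (5.61% upwards and 5.71% downwards), and 5 of 10 did not overlap, against 21.8% of all genes. Without libraries CrAT24Mchow123 and CrAT24Mchow136, 0 of 10 members and 2.8% of all genes passed. In fl/fl cortex 1 of 10 passed, where 1.3% of all genes did (0.478% downwards), and 3 of 10 did not overlap, against 17%. No member passed in the difference of the age effects, nor did any gene tested (2255 genes had an unadjusted p under 0.05 with edgeR, limma-voom called 0 and DESeq2 called 23). As cortex was measured in bulk, fewer cells of a type and less RNA per cell cannot be told apart.

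Transcripts of the renal medulla and the urinary epithelium moved with the age comparison in Pt-CrAT cortex. Of 7 thin limb and medulla markers tested, 5 rose and all 7 had higher values, with a median log2 fold change of 1.25 against 0.04 over all genes. Cryab, a small heat shock protein abundant in the medulla, had 112, 99.0, 74.9, 160 and 122.9 CPM at 24 months and 79.7, 27.4 and 36.0 CPM at 15 months (1.25, SE 0.32, adjusted p = 0.0158, edgeR). Of 5 urothelium markers tested, 4 rose, and the summed level of the 6 found was 13.5 to 39.6 CPM at 24 months and 3.22 to 4.89 CPM at 15 months. In the summed level of the thin limb and medulla list, 1161 to 1898 CPM at 24 months and 1041 to 1445 CPM at 15 months, the ages overlapped. Slc14a2, the urea transporter of the inner medulla, was near 0, at 0.26 to 0.99 CPM at 24 months and 0.07 to 0.16 CPM at 15 months. Without libraries CrAT24Mchow123 and CrAT24Mchow136, 0 of the 7 medulla markers (median 0.95) and 4 of the 5 urothelium markers (median 3.54) rose. In fl/fl cortex 0 of these 7 and 0 of these 5 passed (edgeR), with medians of 0.29 and 1.13. Their part in the rises of Aqp2 and Avpr2 was not tested.

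With group means removed, Aqp2 correlated with the mean of the 7 thin limb and medulla markers at r = 0.75 (rho 0.67) over the 22 libraries, and Avpr2 at r = 0.76 (rho 0.75). Avpr2 and Cryab correlated at r = 0.81 (rho 0.78). Of 8 markers of the distal convoluted and connecting tubule, 3 fell with age in Pt-CrAT cortex and all 8 had lower values. Their summed level was 813 to 1421 CPM at 24 months and 1686 to 1799 CPM at 15 months. Of 8 proximal tubule markers, 3 fell, with summed levels of 5134 to 7977 CPM at 24 months and 10226 to 10645 CPM at 15 months. Without CrAT24Mchow123 and CrAT24Mchow136, 1 of 8 and 2 of 8 fell. Of 7 thick ascending limb markers, 1 rose and 5 had higher values, with summed levels of 2518 to 4291 CPM at 24 months and 2043 to 2899 CPM at 15 months. Without the same pair 0 of the 7 passed and 5 had higher values. The part of these in the fall of Atp6v1b1 was not tested.

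**Figure D2:**
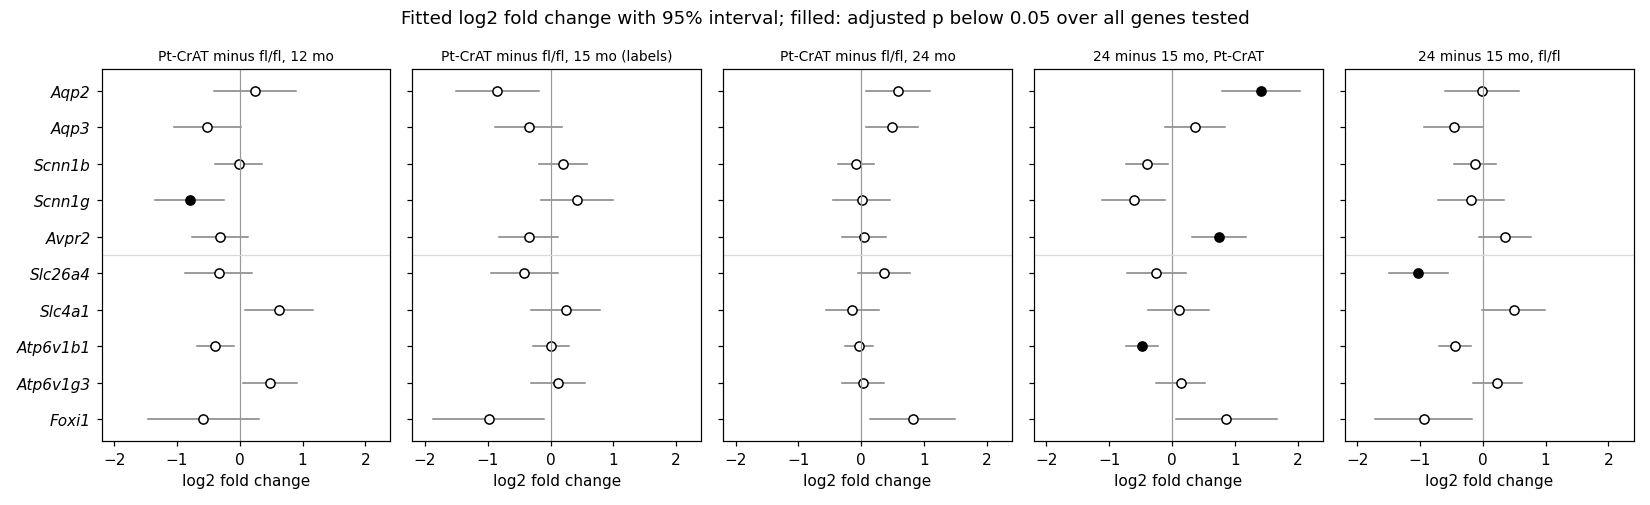
Fitted log2 fold changes (horizontal axis) of the 10 members with 95% intervals in 5 comparisons, Pt-CrAT minus fl/fl at each age and 24 minus 15 months in each genotype; filled points passed. The filled points are Scnn1g at 12 months (-0.80), Aqp2 (1.42), Avpr2 (0.75) and Atp6v1b1 (-0.48) with age in Pt-CrAT, and Slc26a4 (-1.03) with age in fl/fl.

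At 12 months 1 of 10 members differed between the genotypes, where 16.4% of all genes tested passed (7.95% lower in Pt-CrAT). Scnn1g had 2.37, 4.19 and 4.85 CPM in Pt-CrAT cortex, against 7.36, 6.35 and 6.65 CPM in fl/fl cortex. All Pt-CrAT libraries were below all fl/fl libraries, with a log2 fold change of -0.80 (SE 0.26, adjusted p = 0.0425, edgeR). The call did not hold when only the 12-month groups entered the fit (adjusted p = 0.161), nor without Pt-CrAT library CrAT12MLFD328 (-0.56, 0.225) or CrAT12MLFD337 (-0.84, 0.109), nor without fl/fl library Wt12MLFD326 (-0.73, 0.156), Wt12MLFD327 (-0.83, 0.0536) or Wt12MLFD368 (-0.80, 0.0576). Without CrAT12MLFD328 and Wt12MLFD326 together it was -0.50 with an adjusted p of 0.506, the highest of any alternative (the lowest was 0.0208), and 0.123% of all genes passed. Its partner Scnn1b had 66.2, 94.6 and 95.2 CPM in Pt-CrAT cortex and 64.4, 96.7 and 97.8 CPM in fl/fl cortex (-0.02, SE 0.18, adjusted p = 0.966).

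Of the other principal cell members, Avpr2 had 10.4, 12.7 and 12.6 CPM in Pt-CrAT cortex at 12 months and 14.9, 14.0 and 15.7 CPM in fl/fl cortex, without overlap (-0.31, SE 0.22, adjusted p = 0.326). Aqp2 had 377, 434 and 435 CPM in Pt-CrAT cortex and 325, 399 and 332 CPM in fl/fl cortex (0.24, SE 0.32, adjusted p = 0.635). The mean log2 CPM of the 5 principal cell genes minus that of the 5 intercalated cell genes was -0.26 ± 0.07 in Pt-CrAT cortex and -0.02 ± 0.02 in fl/fl cortex (SD, n = 3 each), and the groups did not overlap.

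The 2 V-ATPase subunits lay on opposite sides at 12 months, although neither passed. Atp6v1g3 had 132, 149 and 113 CPM in Pt-CrAT cortex, above the 87.2, 102 and 92.5 CPM of fl/fl cortex (0.49, SE 0.21, adjusted p = 0.107). Atp6v1b1 had 33.5, 39.8 and 46.0 CPM in Pt-CrAT cortex, below the 51.7, 50.3 and 54.6 CPM of fl/fl cortex (-0.39, SE 0.14, adjusted p = 0.0576). It passed with DESeq2 (-0.38, 0.0403) and, in edgeR, without CrAT12MLFD345 (-0.50, 0.0246). The log2 ratio of Atp6v1g3 to Atp6v1b1 was 1.30 to 1.98 in Pt-CrAT libraries and 0.75 to 1.01 in fl/fl libraries. As each gene separated the genotypes, in opposite directions, this ratio could not overlap and adds nothing to the single genes. Slc4a1 had 44.5, 46.4 and 35.1 CPM in Pt-CrAT cortex and 16.8, 28.7 and 36.3 CPM in fl/fl cortex, overlapping through 1 library of each genotype (0.62, SE 0.26, adjusted p = 0.101). Without Wt12MLFD368, the highest fl/fl library, it passed (0.89, adjusted p = 0.0311). Of the 10 members 4 did not overlap between the genotypes, against 30.1% of all genes. Adipocyte markers moved with genotype at this age, with 6 of 7 tested higher in Pt-CrAT and summed levels of the 8 found of 353 to 884 CPM in Pt-CrAT and 134 to 276 CPM in fl/fl. Of all 15064 genes tested, 1267 passed as higher in Pt-CrAT. Without CrAT12MLFD328 and Wt12MLFD326, 0 of the 8 adipocyte markers then tested passed, and 8 had higher values in Pt-CrAT. Their median log2 fold change was then 4.23, against 0.01 over all genes. The part of the adipocyte markers in these differences was not tested.

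**Figure D3:**
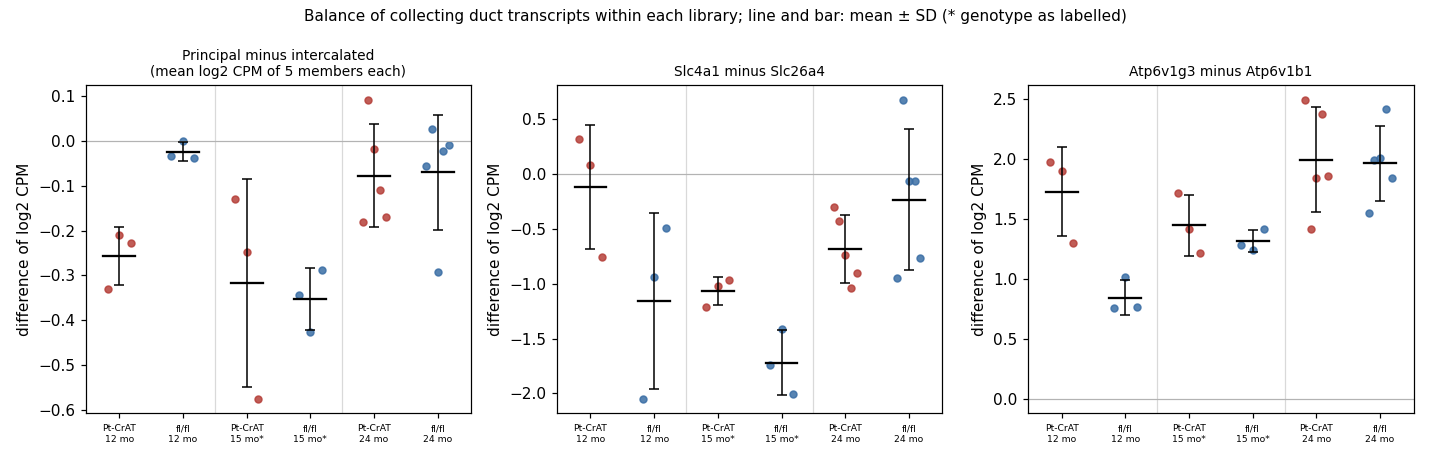
Differences of log2 CPM within each library (vertical axes) for the principal against the intercalated cell genes, Slc4a1 against Slc26a4, and Atp6v1g3 against Atp6v1b1, with mean and SD. At 12 months Atp6v1g3 minus Atp6v1b1 is 1.30 to 1.98 in Pt-CrAT and 0.75 to 1.01 in fl/fl libraries, and Slc4a1 minus Slc26a4 in fl/fl is higher at 24 than at 15 months. The first of these follows from the separation of each gene alone. In the second, Slc26a4 alone already separated the ages.

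At 24 months Crat was lower in Pt-CrAT without passing the test. There 0 of 10 members passed, as did 0 genes tested (1409 genes had an unadjusted p under 0.05 with edgeR, limma-voom called 0 and DESeq2 called 8). Foxi1, with the values above, was the only member whose groups did not overlap, every Pt-CrAT library lying above every fl/fl library (0.82, SE 0.33, adjusted p = 0.469; 0.59 without CrAT24Mchow123 and CrAT24Mchow136). Of all genes tested, 1.53% did not overlap between these groups. Aqp2 (0.59, SE 0.25, adjusted p = 0.475) and Aqp3 (0.48, SE 0.20, adjusted p = 0.475) had higher means in Pt-CrAT with overlapping groups. Without CrAT24Mchow123 and CrAT24Mchow136 these were 0.26 for Aqp2 and 0.31 for Aqp3 (adjusted p = 0.982 for both), and without CrAT24Mchow136 alone 0.46 and 0.25. The 95% intervals of Scnn1b (-0.37 to 0.21) and Atp6v1b1 (-0.26 to 0.19) bound their differences within 0.5 on the log2 scale. So did those of Scnn1g (-0.45 to 0.46), Avpr2 (-0.31 to 0.40) and Atp6v1g3 (-0.31 to 0.37). The intervals of the other members reached past 0.5 in size. All these intervals used every library, and none were computed without CrAT24Mchow123 and CrAT24Mchow136. Without that pair the fold changes were -0.28 (SE 0.16) for Atp6v1g3, -0.15 (SE 0.19) for Avpr2 and -0.03 (SE 0.25) for Scnn1g. Those of Scnn1b and Atp6v1b1 were -0.15 (SE 0.16) and -0.03 (SE 0.13).

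At 15 months 0 of 10 members passed, as did 0 genes tested (1249 genes had an unadjusted p under 0.05 with edgeR, and limma-voom and DESeq2 called 0). Of the 10 members 5 did not overlap, against 24.3% of all genes. In libraries labelled Pt-CrAT, Scnn1b (0.20, SE 0.18), Scnn1g (0.43, SE 0.28) and Atp6v1g3 (0.12, SE 0.21) lay above those labelled fl/fl, and Slc26a4 (-0.42, SE 0.26) and Foxi1 (-0.99, SE 0.42) lay below. Aqp2 had a lower mean in libraries labelled Pt-CrAT, with overlap (-0.85, SE 0.32, adjusted p = 0.581). Adjusted p-values of the 5 ran from 0.581 to 0.843. All 7 thin limb and medulla markers and all 5 urothelium markers had lower values in libraries labelled Pt-CrAT. Whether the genotype difference varied among the 3 settings was tested with 2 degrees of freedom, which 5.07% of all genes and 0 of 10 members passed (adjusted p = 0.0633 for Foxi1, 0.0673 for Aqp2 and 0.0778 for Aqp3, edgeR). With DESeq2 these 3 and Scnn1g passed (0.0120, 0.0190, 0.0373 and 0.0442 in that order). DESeq2 called 2370 genes in this test, against 764 with edgeR.

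Over the 4 chow groups, mean Aqp2 was highest in Pt-CrAT at 24 months (769.5 CPM) and lowest in libraries labelled Pt-CrAT at 15 months (287 CPM). Slc26a4 and Foxi1 were highest in libraries labelled fl/fl at 15 months (70.5 and 16.4 CPM). At the low end, Scnn1g averaged 2.92 CPM in both genotypes at 24 months, and Atp6v1b1 averaged 28.8 CPM in Pt-CrAT and 29.6 CPM in fl/fl at that age, with overlap. With the groups ordered by mean for each gene, 6 of 30 pairs of neighbours did not overlap. Of these, 4 were the 15-month genotypes, with the libraries labelled Pt-CrAT above for Scnn1b, Scnn1g and Atp6v1g3 and below for Slc26a4. The others were Atp6v1b1, lower in fl/fl at 24 months than in libraries labelled fl/fl at 15 months, and Foxi1, higher in Pt-CrAT than in fl/fl at 24 months. The share of such neighbours over all genes was not counted. Of all genes tested, 24.3% did not overlap between the genotypes at 15 months, 17% between the ages in fl/fl and 1.53% between the genotypes at 24 months.

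The mean log2 CPM of the principal minus that of the intercalated cell genes was -0.08 ± 0.11 in Pt-CrAT and -0.07 ± 0.13 in fl/fl at 24 months (SD, n = 5 each), and -0.32 ± 0.23 in libraries labelled Pt-CrAT and -0.35 ± 0.07 in those labelled fl/fl at 15 months (SD, n = 3 each). The difference of 24 from 15 months was 0.24 in Pt-CrAT, with overlap, and -0.04 when the highest member of each cell type was left out. In fl/fl it was 0.28, with overlap, and 0.40 without those members.

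Further genes of the 2 cell types were taken from lists. Of 17 other principal cell genes, 5 rose and 0 fell with age in Pt-CrAT cortex, where 5.61% of all genes rose and 5.71% fell. The median log2 fold change was 0.47 against 0.04 over all genes. Pappa, a metalloprotease, had 7.25 ± 2.46 CPM in Pt-CrAT at 24 months and 2.71 ± 0.20 at 15 months (1.41, SE 0.31, adjusted p = 0.00662). Gata3 (0.69, SE 0.19, adjusted p = 0.0203) and Elf5 (1.81, SE 0.49, adjusted p = 0.0206), both transcription factors of principal cells, rose. Sgk1, the aldosterone-induced kinase that holds the sodium channel at the membrane, had 38.3 ± 17.3 CPM at 24 months and 20.6 ± 5.06 at 15 months (0.89, SE 0.24, adjusted p = 0.0214; SD, n = 5 and 3). Its fold change was 0.57 without CrAT24Mchow136, the highest library, and the call was lost without CrAT15Mchow185 (0.99, 0.0651) or CrAT15Mchow204 (0.72, 0.144). Leaving out CrAT15Mchow185 or CrAT15Mchow204 lost the calls of Gata3 (0.118 and 0.0742) and Elf5 (0.0941 and 0.0784), as did CrAT24Mchow136 for Gata3 (0.0580) and CrAT15Mchow183 (0.0617) or CrAT24Mchow123 (0.0537) for Elf5. Aqp4, a water channel of the blood-facing membrane, was the fifth (1.02, SE 0.32, adjusted p = 0.0459). Without libraries CrAT24Mchow123 and CrAT24Mchow136, 0 of the 17 passed, with a median of 0.39. With age in fl/fl cortex, 1 of the 17, Rhcg, an ammonia channel that intercalated cells also express, fell (-0.84, SE 0.19, adjusted p = 0.0311), a call lost in 6 of 13 alternatives, each without 1 library (adjusted p up to 0.246, without Wt15Mchow227).

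At 12 months 0 of these 17 rose and 2 fell in Pt-CrAT, where 16.4% of all genes passed and 7.95% fell. Hsd11b2, the enzyme that keeps glucocorticoids off the aldosterone receptor, had 53.6 ± 7.30 CPM in Pt-CrAT and 97.6 ± 13.4 in fl/fl (-0.86, SE 0.16, adjusted p = 0.00551). Kcnj1, the potassium channel ROMK, which the thick ascending limb also makes, had 39.7 ± 8.78 CPM in Pt-CrAT and 71.8 ± 18.6 in fl/fl (SD, n = 3 each; -0.85, SE 0.28, adjusted p = 0.0454). Of 7 thick ascending limb markers, 3 fell in Pt-CrAT at this age, Kcnj1 among them. Without CrAT12MLFD328 and Wt12MLFD326, 0 of the 17 and 0 of the 7 passed. When only the 12-month groups entered the fit, neither Hsd11b2 nor Kcnj1 passed (adjusted p = 0.158 for both, edgeR). Without CrAT12MLFD328 alone, neither Hsd11b2 (-0.76, 0.0565) nor Kcnj1 (-0.71, 0.206) passed. Kcnj1 was also lost without CrAT12MLFD337 (0.155), Wt12MLFD326 (0.265) or Wt12MLFD327 (0.0509). Hsd11b2 varied among the settings (adjusted p = 0.0200, edgeR; 5.07% of all genes passed), a call lost in 3 of 27 alternatives, without CrAT12MLFD328 (0.0957), CrAT12MLFD337 (0.0758) or the pair CrAT24Mchow123 and CrAT24Mchow136 (0.0520). Sgk1 (0.0432) and Kcnj1 (0.0438) lost that call in 15 and 14 of 27, with adjusted p-values up to 0.124 and 0.129, both without CrAT12MLFD328.

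Of 21 other intercalated cell genes, 1 rose and 3 fell with age in Pt-CrAT cortex, beside the 5.61% and 5.71% of all genes, with a median of -0.05. Rhbg, an ammonia transporter of the blood-facing membrane, had 21.6 ± 3.42 CPM at 24 months and 38.3 ± 7.06 at 15 months (SD, n = 5 and 3; -0.82, SE 0.16, adjusted p = 0.00362). Its call held under all 14 alternatives run. Car12, a carbonic anhydrase (-0.52, SE 0.16, adjusted p = 0.0374), and Hmx2, a homeobox factor (-0.85, SE 0.26, adjusted p = 0.0378), also fell, and Jag1, a Notch ligand, rose (1.06, SE 0.34, adjusted p = 0.0497). Without libraries CrAT24Mchow123 and CrAT24Mchow136, 0 of the 21 rose and 2 fell, Rhbg and Hmx2. Car12 and Hmx2 each lost the call in 8 of 14 alternatives and Jag1 in 9 of 14. The fold change of Car12 was -0.33 without CrAT15Mchow185 (adjusted p = 0.297), and that of Hmx2 was -0.47 without CrAT15Mchow204 (0.352). With age in fl/fl cortex, 0 of the 21 passed, with a median of -0.17. At 12 months 0 rose and 2 fell in Pt-CrAT (7.95% of all genes fell), Car2, the cytosolic carbonic anhydrase (-0.69, SE 0.23, adjusted p = 0.0457), and Jag1 (-1.09, SE 0.37, adjusted p = 0.0474). Without Wt12MLFD326 alone they were -0.35 (adjusted p = 0.382) and -0.48 (0.450). Neither passed without CrAT12MLFD328 (0.214 and 0.208) or CrAT12MLFD337 (0.199 and 0.171), nor when only the 12-month groups entered the fit (0.191 and 0.172). In the test of variation among the settings, which 5.07% of all genes passed, Rhbg passed (adjusted p = 0.0468, edgeR). That call was lost in 18 of 27 alternatives.

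The V-ATPase subunits found in all cells were set beside Atp6v1b1 and Atp6v1g3. With age in Pt-CrAT cortex, where 5.71% of all genes fell, 0 of 15 rose and 2 fell, Atp6v1c1 (-0.41, SE 0.11, adjusted p = 0.0212) and Atp6v0d1 (-0.48, SE 0.13, adjusted p = 0.0219), and all 15 had lower values with a median of -0.27. In fl/fl cortex 0 of 15 passed, with 14 lower values and a median of -0.23. At 12 months Atp6v0b rose (0.55, SE 0.14, adjusted p = 0.0166) and Atp6v1h fell (-1.37, SE 0.35, adjusted p = 0.0166) in Pt-CrAT. Without Wt12MLFD326 alone, Atp6v1h was -0.75 (adjusted p = 0.163) and Atp6v0b 0.56 (0.0552). Neither passed without CrAT12MLFD328 (0.111 and 0.107) or CrAT12MLFD337 (0.0839 and 0.0591), nor when only the 12-month groups entered the fit (0.158 for both). Without CrAT15Mchow185, Atp6v1c1 (0.115) and Atp6v0d1 (0.114) lost their calls, as they did without CrAT15Mchow204 (0.0819 and 0.139). Of these 15 genes 0 passed with age without CrAT24Mchow123 and CrAT24Mchow136, and 0 at 12 months without CrAT12MLFD328 and Wt12MLFD326. Atp6v0b passed the test of variation among the settings (adjusted p = 0.0304, edgeR), as did 5.07% of all genes, and lost that call in 6 of 27 alternatives.

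The members of a cell type did not vary as a block from library to library. After group means were removed, Pearson's r among the 10 pairs of principal cell genes ranged from -0.38 to 0.77 with a median of 0.21, and 7 of 10 were positive. Among the 10 pairs of intercalated cell genes it ranged from -0.35 to 0.77 with a median of -0.01, and 5 of 10 were positive. Across the cell types the 25 pairs had a median of 0.30, and 18 were positive.

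Aqp3 and Foxi1, markers of different cell types, had the highest r of any pair of members (0.81, rho 0.86), followed by Aqp2 with Avpr2 (0.77, rho 0.74) and Slc26a4 with Foxi1 (0.77, rho 0.75). Slc4a1 and Atp6v1g3 stood at 0.71 (rho 0.71), while the type A gene Slc4a1 and the type B gene Slc26a4 stood at -0.03. The lowest value was that of Aqp3 with Slc4a1 (-0.48, rho -0.54). Of 9334 genes with at least 5 CPM, 11.9% reached r = 0.7 with Aqp3 and 10.1% with Foxi1, against 3.29% with Slc4a1, 0.99% with Slc26a4 and 0.26% with Aqp2, so high values with Aqp3 and Foxi1 were common over the transcriptome.

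**Figure D4:**
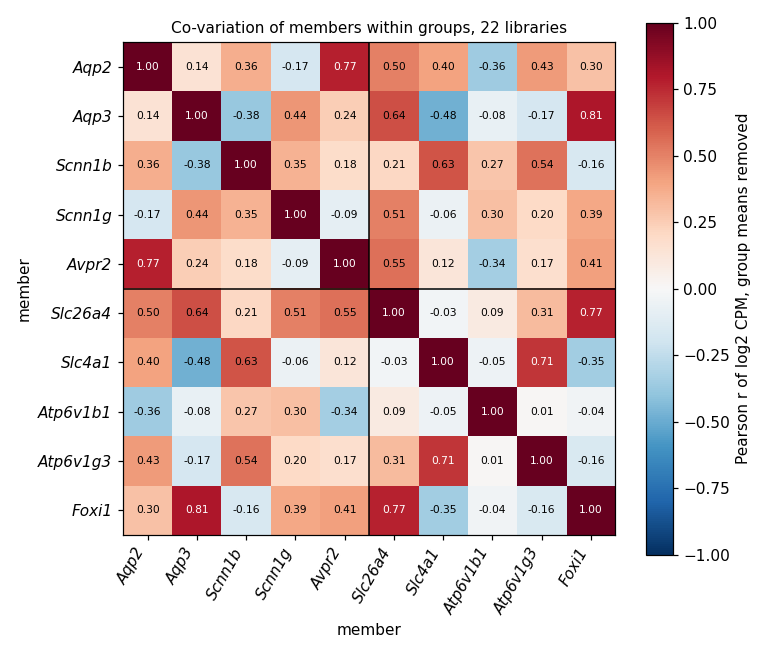
Pearson's r of log2 CPM between members over 22 libraries after removal of group means, on a colour scale of -1 to 1; lines part principal from intercalated cell genes. Aqp3 with Foxi1 (0.81) and Aqp2 with Avpr2 (0.77) are the darkest cells off the diagonal, and Aqp3 with Slc4a1 (-0.48) is the lowest.

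Of the same 9334 genes over the 22 libraries, those most like the mean of the principal cell members were Spink8 (r = 0.80), Ifrd1 (0.78), Cacnb4 (0.78), Rgs2 (0.78), Gsdmc3 (0.77) and Hspa1a (0.77). Those most like the mean of the intercalated cell members were Tspan1 (0.88), Mal (0.79), Rgs2 (0.78), Spink8 (0.78), Neurl1b (0.78) and Tanc1 (0.78). Spink8 and Rgs2 were on both lists. Atp6v1g3 was most like Atp6v1c2 (r = 0.88, rho 0.85), another V-ATPase subunit of intercalated cells.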

How the data were processed

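TRIzol was used to extract RNA, and the library kit was QuantSeq 3' FWD, per the labels' protocols. Per the submitters' processing notes, reads were placed on GRCm38, with R 3.4.3 and DESeq2 1.18.1 among the tools. No source used here names an aligner, a counter or a strand setting. Raw read counts per gene were deposited and underlie all tests. A second deposited table, a normalized signal, holds each count divided by a DESeq2 size factor per library and served to pair identifiers with symbols and to check those factors. The deposited column totals were left out.

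All 22 libraries entered 1 model of 6 groups (16 residual degrees of freedom) in edgeR 4.0.16 under R 4.3.3, with TMM scaling, filterByExpr and the robust quasi-likelihood F test. Benjamini-Hochberg adjustment ran over 15064 genes, with a threshold of 0.05. "Rose" and "fell" mean fitted changes past this threshold. The model was also run on counts simulated from its own estimates of spread, which hold no outlying libraries. That run says nothing of calls that rest on single libraries. Levels are TMM-scaled CPM; log2 CPM used a prior count of 2. Intervals are 95%. Correlations used log2 CPM minus the group mean. The biological coefficient of variation was 20.5%. In all 32 pairs of libraries of the same group, counts differed beyond sampling noise (chi-square over degrees of freedom 10.2 to 134), and each library was counted. Separate litters, cages or days are not labelled, so p-values measure the spread between these libraries. Age and genotype comparisons share libraries. Reads carry no molecular identifiers and are not independent molecules.

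Alternatives were RLE scaling, no filter on low counts, limma-voom (limma 3.58.1), DESeq2 1.42.0, a fit of only the groups compared, leaving out each library in turn, and leaving out libraries CrAT12MLFD328 and Wt12MLFD326 together. Leaving out libraries CrAT24Mchow123 and CrAT24Mchow136 together, and counting the lists without either pair, were chosen after seeing the data. The members and all lists were chosen with earlier results of these data known. Named genes are the members, up to 4 genes of each list with the smallest p, and the 6 genes most like the mean of each cell type's members (at least 5 CPM); Aqp4, Scnn1a, L1cam, Arhgap4, Cog7, Kap, Cryab, Slc14a2, Hbb-bs and Atp6v1c2 were added after their values were seen. Coordinates and overlaps are from GENCODE on GRCm38.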

Additional observations from a re-analysis of the deposited data

Results flagged for a closer look

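Pt-CrAT library CrAT24Mchow136 at 24 months stood apart from the other 4 libraries of its group in Aqp3, at 47.7 CPM, and in Foxi1, at 23.2 CPM. In fl/fl cortex at 24 months, library Wt24Mchow154 stood apart in Foxi1, at 3.27 CPM. The criterion was the gap to the nearest library over the range of the group, and chance flags about 1 in 20 groups. It was applied to each of the 10 members in both 24-month groups. Library CrAT24Mchow136 also had low Kap.

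The genotype difference of Scnn1g went opposite ways in different settings, with every Pt-CrAT library below fl/fl at 12 months and every library labelled Pt-CrAT above those labelled fl/fl at 15 months; its test of variation among the settings gave an adjusted p of 0.0849 (edgeR). That of Foxi1 went below at 15 months, by the labels, and above at 24 months, with an adjusted p of 0.0633 (edgeR). Neither passed the threshold.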

How the results depend on the processing

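No paired analysis was possible because no replicate number is shared between groups. Of 1141 recomputed values of members, 1060 kept their direction and side of the threshold, 22 lost and 18 gained a call, and 41 changed sign. Gains under DESeq2 were those of Atp6v1b1 at 12 months (0.0403) and with age in fl/fl (0.0255), and, in the test of variation among settings, of Aqp2 (adjusted p = 0.0190), Aqp3 (0.0373), Scnn1g (0.0442) and Foxi1 (0.0120); causes were not tested.

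With DESeq2 the number of genes called was 8 for genotype at 24 months, 2370 for variation among settings, 729 for age in fl/fl and 23 for the difference of age effects. With only the groups compared it was 1 at 12 months and 4 at 15 months. Without libraries CrAT12MLFD328 and Wt12MLFD326 it was 19 at 12 months, and without CrAT24Mchow123 and CrAT24Mchow136 it was 30 for variation among settings and 417 for age in Pt-CrAT. Leaving out 1 library gave 53 to 3513 calls at 12 months, 0 to 0 at 15 months, 0 to 2 at 24 months, 2 to 2195 for variation among settings, 393 to 1777 for age in Pt-CrAT, 3 to 756 for age in fl/fl and 0 to 0 for the difference of age effects. The lowest counts came without Pt-CrAT libraries CrAT12MLFD328 (12 months), CrAT12MLFD337 (settings) and CrAT15Mchow204 (age) and fl/fl library Wt15Mchow227 (age).

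Without the highest member of each cell type, the principal minus intercalated difference moved to 0.29 at 15 months (labels), -0.15 at 24 months, -0.041 for age in Pt-CrAT and 0.40 for age in fl/fl.

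Sign changes were all of log2 fold changes near 0 or without a call: Atp6v1b1 at 15 months (-0.0013 with RLE, -0.013 with limma-voom, -0.0014 with DESeq2), Scnn1g at 24 months (-0.0081 with RLE, -0.029 without CrAT24Mchow123 and CrAT24Mchow136), Atp6v1g3 at 24 months (-0.0057 with limma-voom, -0.28 without CrAT24Mchow123 and CrAT24Mchow136), Aqp2 for age in fl/fl (0.022 with limma-voom), Foxi1 at 12 months (0.086 without CrAT12MLFD328 and Wt12MLFD326), and, without CrAT24Mchow123 and CrAT24Mchow136, Avpr2 at 24 months (-0.15), Slc4a1 (-0.15) and Atp6v1g3 (-0.16) for age in Pt-CrAT. Leaving out 1 library gave -0.19 to 0.15 for Scnn1b at 12 months, -0.11 to 0.15 for Atp6v1b1 at 15 months, -0.20 to 0.40 for Aqp2 with age in fl/fl, -0.11 to 0.10 for Scnn1g, -0.10 to 0.17 for Atp6v1g3, -0.040 to 0.15 for Avpr2 and -0.14 to 0.044 for Scnn1b at 24 months, -0.0015 to 0.23 for Slc4a1 with age in Pt-CrAT, and -0.19 to 0.072 for Atp6v1b1 and -0.22 to 0.068 for Atp6v1g3 in the difference of age effects.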
